A study of Mus musculus with 11 samples.

Results

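The integrated stress response was followed through 10 of its genes, Atf4, Ddit3, Chac1, Trib3, Asns, Sesn2, Slc7a11, Atf5, Ppp1r15a and Hspa5, which were taken by name from a table of 22609 mouse genes. All 10 were listed, and all 10 passed the minimum of 10 counts over the 11 libraries that left 17557 genes for testing. The libraries were bulk polyadenylated RNA from tissue labelled cerebellar hemisphere of untreated mice of 4 genotypes. Control mice carried NfascFx/Fx;AnkGFx/Fx by the series design (n = 3). NFKO mice were Pcp2-Cre;NfascFx/Fx (n = 3) and AnkGKO mice Pcp2-Cre;AnkGFx/Fx (n = 2). In DKO mice (n = 3), which were Pcp2-Cre;NfascFx/Fx;AnkGFx/Fx, both genes were targeted. Nfasc encodes the adhesion protein NF186 and Ank3 the scaffold protein AnkG, both of which assemble the axon initial segment. Floxed alleles were thus shared by every group, and Pcp2-Cre, which is driven by a Purkinje cell promoter, by the 3 knockout groups. The study's own description of the controls adds Pcp2-Cre in another place, so that whether they carried Cre was not settled here. Purkinje cells are a minor share of the tissue, and the libraries hold RNA of all its cells. The labels give postnatal day 30 and C57BL/6J in one field and day 32 and a mixed background in another. Each library is labelled as a biological replicate, and all carry the label batch 1.

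In the integrated stress response, kinases that sense misfolded protein, amino acid shortage, viral RNA or low heme phosphorylate the translation factor eIF2. General protein synthesis then drops while the Atf4 transcript is translated more, and ATF4 protein switches on genes for amino acid supply, redox balance and, when the stress lasts, cell death. In the endoplasmic reticulum (ER) the same kinase step is 1 of 3 branches of the unfolded protein response, whose ATF6 and XBP1 branches drive the ER chaperones, Hspa5 first among them. Because ATF4 is set largely by translation, Atf4 RNA is only part of its control, and the levels below are of RNA.

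None of the 10 genes was called in any of 6 comparisons, where a call needs both an adjusted p of less than 0.05 and a log2 fold change of 0.6 or more in size. Atf4 itself spanned 107 to 137 CPM over all libraries, a 1.28-fold range, while the ranges of the other 9 genes ran from 1.26-fold for Asns to 3.87-fold for Slc7a11. Hspa5, the ER chaperone BiP, was the 1 gene of the 10 that differed among the 4 genotypes (adjusted p = 0.0291, edgeR's quasi-likelihood F test with Benjamini-Hochberg adjustment), at 341 ± 17.8 CPM in NFKO (SD, n = 3) against 245 ± 22.5 in DKO (SD, n = 3), with Control at 286 ± 5.88 (SD, n = 3) and AnkGKO at 263 ± 14.1 (SD, n = 2). CPM is the usual depth-scaled read count of a gene, here with TMM-scaled library sizes. The count of 0 called genes stood against a background of 0.365% of all tested genes called in NFKO against Control, 0.165% in AnkGKO against Control, 0.0228% in DKO against Control, 0.615% in DKO against NFKO, 0.171% in DKO against AnkGKO and 0.53% in the interaction of the knockouts. The interaction is the DKO effect less both single effects. For the F test over the 4 genotypes the background was 0.723%. At an unadjusted p under 0.05 the 10 genes gave 2 in NFKO against Control, 0 in AnkGKO, 2 in DKO against Control, 6 in DKO against NFKO, 2 in DKO against AnkGKO and 3 in the interaction, while DESeq2 called 0 in all 6. Over all tested genes the shares at that unadjusted p were 7.69%, 5.39%, 7.77%, 16.2%, 8.48% and 10.3% in the same order.

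Several facts of the libraries bear on what follows. Reads counted on genes totalled 38890851 to 55822361 per library, so that 3 counts equal 0.0537 to 0.0771 CPM. Mean Ank3 fell from 363 CPM in Control (SD 11.1, n = 3) to 178 CPM in AnkGKO (SD 31.4, n = 2; adjusted p = 0.00108) and 173 CPM in DKO (SD 12.7, n = 3; adjusted p = 0.000461), whereas whole-gene counts of Nfasc in NFKO (653 ± 41.8, SD, n = 3) overlapped Control (690 ± 28.4, SD, n = 3). Pcp2, a defining Purkinje cell gene, lay at or under 2.14 CPM in 9 of the 11 libraries, and Gabra6 of granule cells at or under 4.41 in the same 9, while 10 caudal Hox genes summed to 330 to 559 CPM in every library, which goes against the cerebellar label. Control 1 and NFKO 1 held more granule cell RNA (8 genes summing to 911 and 768 CPM, against 305 to 375 elsewhere). The 6 genes of meningeal fibroblasts summed to 460 to 1431 CPM in NFKO and to 98.8 to 395 in the other groups. Xist was at or under 1.39 CPM in all of NFKO and AnkGKO and in Control 3, and between 28.4 and 598 CPM in all of DKO and the other controls. In bulk tissue, fewer cells of a type and less RNA per cell cannot be told apart.

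Short motifs mark the branches of this response in DNA. ATF4 with its C/EBP partners reads the CARE element, written TGATGNAA, and ATF6 and XBP1 read the ER stress elements ERSE, which is CCAAT and CCACG with 9 bases of any kind between them, and ERSE-II, which is ATTGG and CCACG with 1 base between them. These letters were searched on both strands in the 250 bases before the start of each gene's canonical transcript (GENCODE vM39, GRCm39). CARE stood in 3.39% of 21757 protein-coding promoters, ERSE in 0.115% and ERSE-II in 0.0552%. Of the 10 genes, Ddit3, Chac1 and Slc7a11 held CARE and Hspa5 held ERSE. The other 6 held none of the 3, which says only that these letters are not in this window. The matches are shown with their flanks, 30 bases each on the strand of the gene, because the chaperone gene and the ATF4 targets hold different elements. Capitals mark the motif, which reads as its reverse complement (TTGCATCA for CARE) where it lies on the other strand.
Ddit3 CARE, chr10:127126350-127126379, plus strand: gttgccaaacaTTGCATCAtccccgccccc
Chac1 CARE, chr2:119181519-119181548, plus strand: cttccctgccgTTGCATCActcctgccagg
Slc7a11 CARE, first match, chr3:50398110-50398139, minus strand: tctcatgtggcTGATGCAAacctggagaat
Slc7a11 CARE, second match, chr3:50398091-50398120, minus strand: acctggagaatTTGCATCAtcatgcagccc
Hspa5 ERSE, chr2:34662032-34662061, plus strand: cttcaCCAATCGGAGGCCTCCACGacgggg

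The same ER elements were found in front of some of the chaperones that are compared with Hspa5 further on. Of 21 genes in a list of ER chaperones and ER-associated degradation, 8 held ERSE, 2 held ERSE-II and 0 held CARE. Dnajb11, Sdf2l1 and Pdia3 held neither ER element. The matches shown are of genes whose Pearson r with Hspa5 over the 11 libraries was 0.90 or higher. Those of Canx, Dnajc3, Manf, Creld2 and Syvn1 are not shown, so the matches shown do not link element and level. None of the capital stretches shown overlapped another. A match is a description of the letters and not a site of binding.
Hsp90b1 ERSE, first match, chr10:86541496-86541525, minus strand: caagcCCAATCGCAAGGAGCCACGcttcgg
Hsp90b1 ERSE, second match, chr10:86541391-86541420, minus strand: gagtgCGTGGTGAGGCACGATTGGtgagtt
Calr ERSE, chr8:85573698-85573727, minus strand: caacgCGTGGTCGACCCTCATTGGcccata
Pdia6 ERSE, chr12:17316487-17316516, plus strand: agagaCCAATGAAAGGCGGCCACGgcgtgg
Derl3 ERSE, chr10:75729071-75729100, plus strand: tctacCGTGGGACTTCCCCATTGGctagcc
Hyou1 ERSE-II, first match, chr9:44290652-44290681, plus strand: gaaccgtgaCGTGGCCCAATccgcagccag
Hyou1 ERSE-II, second match, chr9:44290743-44290772, plus strand: cagaggggcgggtcttctaCGTGGACCAAT

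Levels can be set side by side between genes only per length of exon sequence. Averaged over the 11 libraries, Atf4 (51.6 CPM per kb of exon) and Hspa5 (51.4) were the most abundant of the 10. Atf5 followed at 13.1 CPM per kb, Asns at 8.88, Ppp1r15a at 5.33, Sesn2 at 4.58, Chac1 at 4.30, Ddit3 at 3.25 and Slc7a11 at 2.11. Trib3 was the lowest at 0.218 CPM per kb and was counted at 24 to 52 reads per library. The factors Atf4 and Atf5 thus stood above most of the other genes in RNA level. Ddit3, which also encodes a factor of the response, lay below Asns, Ppp1r15a, Sesn2 and Chac1. The exon length used here joins all annotated transcripts of a gene.

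**Figure D1:**
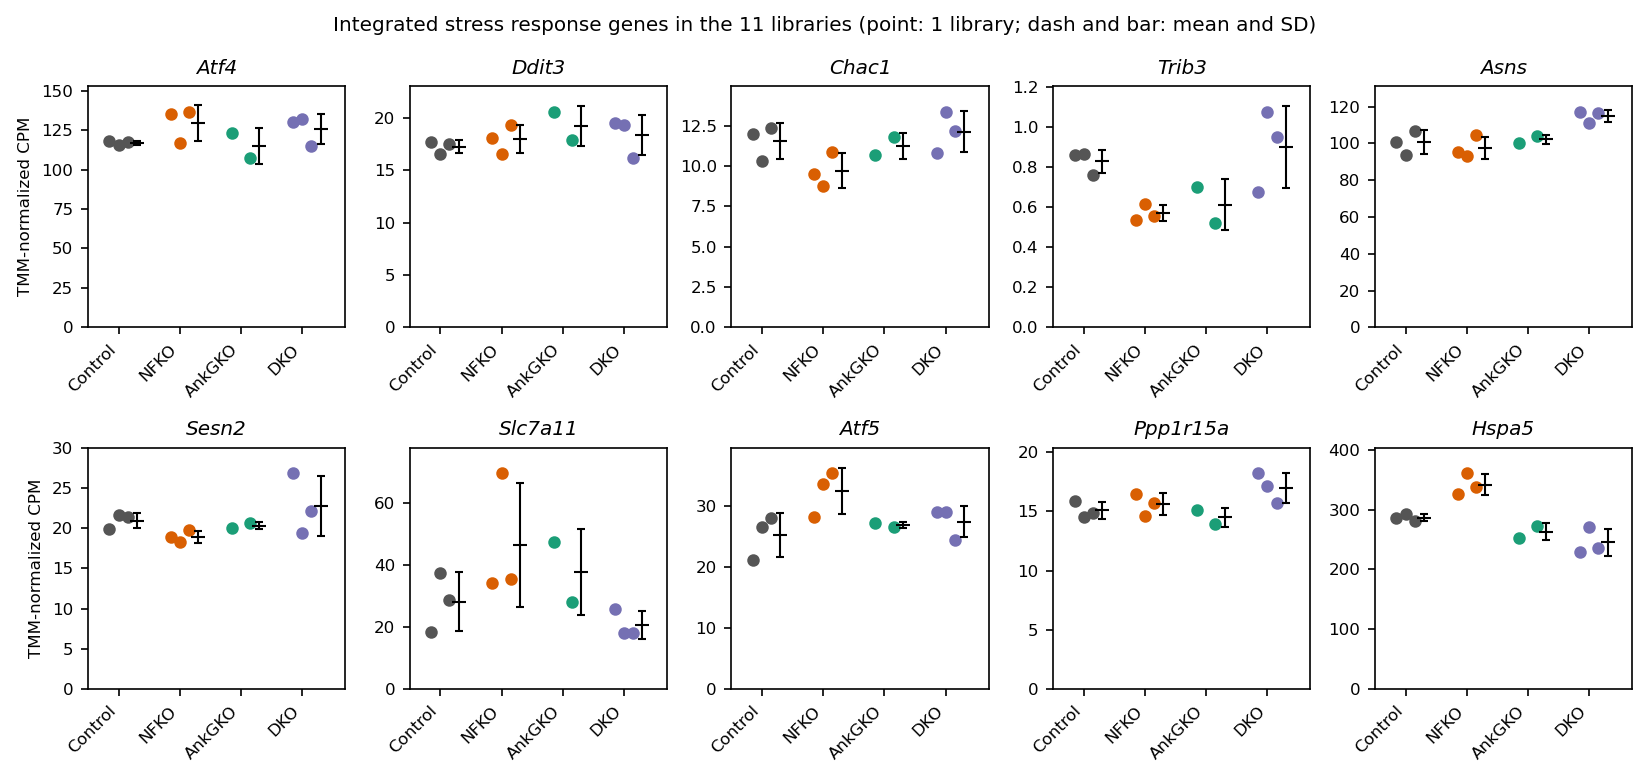
TMM-normalized CPM (vertical axis, from 0) of the 10 genes in Control, NFKO, AnkGKO and DKO; each point is 1 library, and the dash and bar beside the points are the mean and SD. The 3 NFKO points of Hspa5 (325 to 361 CPM) lie above all 8 others (228 to 292 CPM), and Slc7a11 has 1 NFKO library at 69.6 CPM.

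Atf4, the transcription factor at the centre of the response (chr15:80139372-80141745), was at 118, 115 and 117 CPM in Control, 135, 117 and 137 in NFKO, 123 and 107 in AnkGKO and 130, 132 and 115 in DKO. Its 4 groups overlapped in every neighbouring pair, in the order NFKO, DKO, Control and AnkGKO. In NFKO the log2 fold change from Control was 0.15 (95% interval -0.03 to 0.32, adjusted p = 0.765), while it came to -0.02 in AnkGKO (-0.22 to 0.17, adjusted p = 0.998) and 0.11 in DKO (-0.07 to 0.28, adjusted p = 0.739). These intervals all end inside the fold threshold of 0.6.

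Ddit3 encodes CHOP, the factor that ATF4 induces and that turns lasting ER stress towards cell death (chr10:127124268-127132163). It was at 17.7, 16.5 and 17.5 CPM in Control, 18.1, 16.6 and 19.3 in NFKO, 20.6 and 17.9 in AnkGKO and 19.6, 19.3 and 16.2 in DKO. Both AnkGKO libraries stood just above the highest control, and every other pair of groups overlapped. Its log2 fold changes against Control were 0.06 in NFKO, 0.16 in AnkGKO and 0.09 in DKO, with adjusted p-values of 0.993, 0.998 and 0.833. The exons of Ddit3 overlap those of Mars1 and Mbd6 in the annotation, and whether the counting used strand is not given in the sources used here, so reads of the overlapping part cannot be assigned with certainty.

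Atf5, a factor related to ATF4 that is translated in the same way and serves the mitochondrial stress response (chr7:44461680-44466082), was at 21.3, 26.7 and 28.0 CPM in Control, 28.3, 33.8 and 35.4 in NFKO, 27.2 and 26.6 in AnkGKO and 29.002, 29.026 and 24.5 in DKO. All 3 NFKO libraries lay above all 3 controls, the nearest pair by less than 1 CPM. The log2 fold change of 0.36 (95% interval 0.10 to 0.61) had an unadjusted p of 0.0100 and an adjusted p of 0.415 in edgeR's quasi-likelihood test. In AnkGKO and DKO it was 0.09 and 0.12 with adjusted p-values of 0.998 and 0.812. Atf5 shares exon sequence with the overlapping genes Il4i1 and Nup62.

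Among the targets that act back on the response, Ppp1r15a encodes GADD34, which recruits the phosphatase that undoes eIF2 phosphorylation (chr7:45172340-45175692). It was at 15.9, 14.5 and 14.9 CPM in Control, 16.5, 14.6 and 15.7 in NFKO, 15.1 and 13.9 in AnkGKO and 18.2, 17.1 and 15.7 in DKO. DKO lay above AnkGKO without overlap (log2 fold change 0.23, 95% interval 0.01 to 0.45, adjusted p = 0.578), and it overlapped Control and NFKO.

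Trib3 encodes a pseudokinase that restrains ATF4 and CHOP (chr2:152179337-152191958). It was at 0.858, 0.866 and 0.762 CPM in Control, 0.536, 0.616 and 0.557 in NFKO, 0.702 and 0.521 in AnkGKO and 0.677, 1.07 and 0.946 in DKO. Every NFKO and AnkGKO library lay below every control, and every DKO library above every NFKO library, but these are small numbers of reads. The 33 reads of Control 1 carry an exact Poisson interval of 22.7 to 46.3 reads, and the 28 of NFKO 1 one of 18.6 to 40.5, which covers counting error only. The fitted log2 fold changes against Control were -0.54 in NFKO (95% interval -1.10 to 0.02, adjusted p = 0.679), -0.44 in AnkGKO (-1.07 to 0.20, adjusted p = 0.998) and 0.12 in DKO (-0.43 to 0.67, adjusted p = 0.927). In DKO against NFKO it was 0.66 (0.10 to 1.22, adjusted p = 0.238).

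Asns, which makes asparagine and is a classical ATF4 target (chr6:7671667-7728461), was at 101, 93.9 and 107 CPM in Control, 95.1, 93.3 and 104 in NFKO, 100 and 104 in AnkGKO and 117, 111.3 and 117 in DKO. All 3 DKO libraries lay above the 8 others, whose groups overlapped one another. The difference was small. Its log2 fold change was 0.19 in DKO against Control (95% interval 0.05 to 0.34, adjusted p = 0.588) and 0.24 in DKO against NFKO (0.09 to 0.38, adjusted p = 0.131). DESeq2 gave Asns an adjusted p of 0.00829 in DKO against NFKO and of 0.0243 among the 4 genotypes, where edgeR gave 0.324, and neither tool put it past the fold threshold.

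Sesn2 encodes sestrin 2, which restrains the growth kinase mTORC1 when leucine is short (chr4:132219335-132237815). It was at 19.9, 21.6 and 21.4 CPM in Control, 18.9, 18.2 and 19.7 in NFKO, 20.01 and 20.7 in AnkGKO and 26.9, 19.4 and 22.2 in DKO. NFKO lay just below Control and AnkGKO without overlap, while DKO overlapped every group but was spread by 1 library at 26.9 CPM. The log2 fold change was -0.15 in NFKO (adjusted p = 0.887) and 0.12 in DKO (adjusted p = 0.774) against Control.

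Chac1, an enzyme that breaks down glutathione and is among the most sensitive ATF4 and CHOP targets (chr2:119180757-119184866), was at 12.0, 10.3 and 12.4 CPM in Control, 9.51, 8.78 and 10.9 in NFKO, 10.7 and 11.8 in AnkGKO and 10.8, 13.4 and 12.2 in DKO. Each group overlapped Control. The log2 fold change was -0.25 in NFKO (95% interval -0.51 to 0.01, adjusted p = 0.686), -0.04 in AnkGKO (-0.33 to 0.25, adjusted p = 0.998) and 0.07 in DKO (-0.19 to 0.33, adjusted p = 0.904).

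Slc7a11, the cystine importer xCT that feeds glutathione synthesis and answers to ATF4 and NRF2 (chr3:49846975-50398070), varied most of the 10. It was at 18.5, 37.5 and 28.6 CPM in Control, 34.2, 69.6 and 35.6 in NFKO, 47.5 and 27.9 in AnkGKO and 25.8, 18.0 and 18.0 in DKO. The highest library, NFKO 2, stood 3.87-fold above the lowest, DKO 3, and only NFKO and DKO, and AnkGKO and DKO, were without overlap. Its coefficient of variation over the 11 libraries was 46.5%, against 7.85% to 24.6% for the other 9 genes. The log2 fold change was 0.72 in NFKO against Control (95% interval -0.15 to 1.59, adjusted p = 0.768) and -1.17 in DKO against NFKO (-2.05 to -0.30, adjusted p = 0.201), both past the fold threshold and neither past the p-value threshold. With 1 library left out, the value in NFKO against Control ran from 0.31 to 0.98, so it did not always stay past the fold threshold. The 6 meningeal fibroblast genes tracked Slc7a11 with a Pearson r of 0.67 (Lum) to 0.90 (Igf2) over the 11 libraries. With the summed fibroblast genes as a covariate, the fold change of Slc7a11 in NFKO against Control became -0.05. The part of fibroblast RNA in the spread of Slc7a11 was not tested beyond this.

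**Figure D2:**
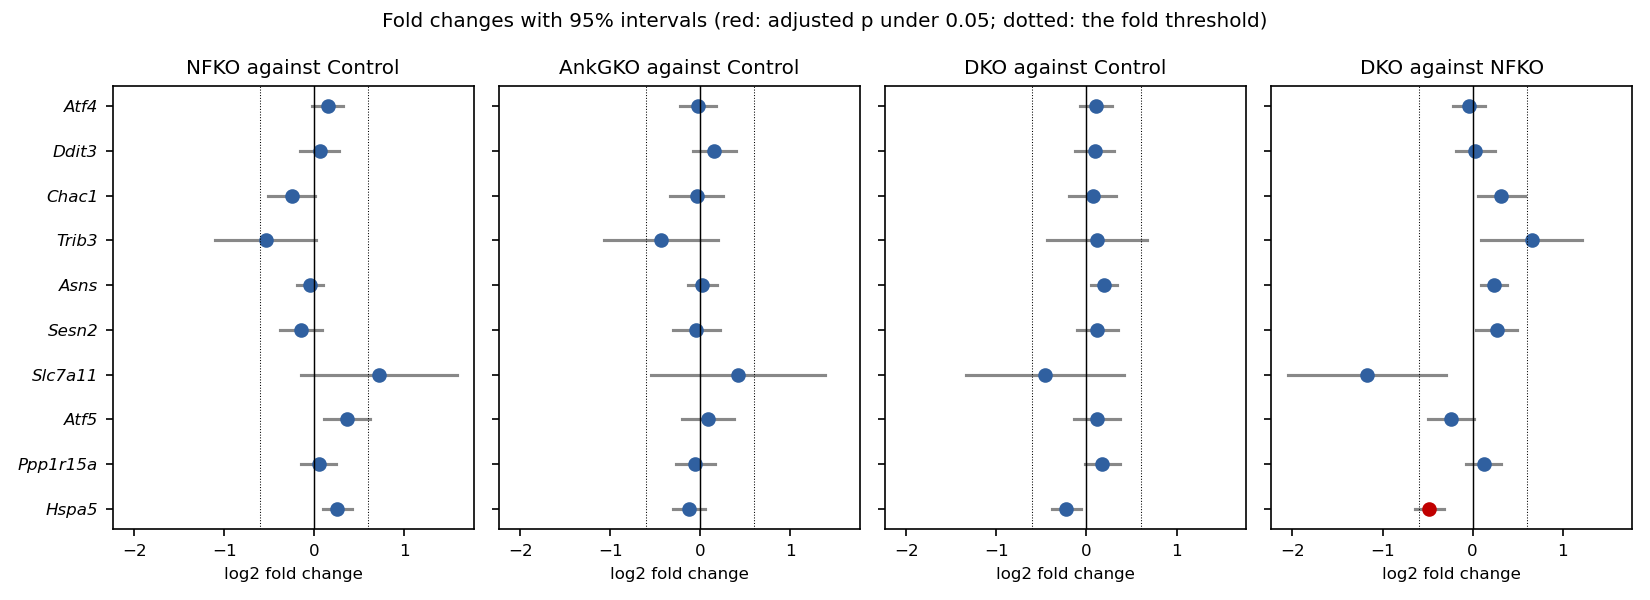
Log2 fold change (horizontal axis) of the 10 genes in NFKO, AnkGKO and DKO against Control and in DKO against NFKO; points are edgeR estimates, bars their 95% intervals, dotted lines the fold threshold of 0.6, and red marks an adjusted p-value under 0.05. Hspa5 in DKO against NFKO (-0.48) is the 1 red point.

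Hspa5 encodes BiP, the Hsp70 chaperone of the ER lumen that also holds the stress sensors inactive (chr2:34661982-34668880). It was at 286, 292 and 280 CPM in Control, 325, 361 and 338 in NFKO, 253 and 273 in AnkGKO and 228, 271 and 236 in DKO. The NFKO libraries were the highest 3 of the 11, the controls came next, and AnkGKO and DKO lay below them and overlapped each other. In DKO against NFKO the log2 fold change was -0.48 (SE 0.072, 95% interval -0.64 to -0.32, adjusted p = 0.00904), which passed the p-value threshold but not the fold threshold. Hspa5 differed from Control by a log2 fold change of 0.26 in NFKO (95% interval 0.10 to 0.41, adjusted p = 0.283), -0.12 in AnkGKO (-0.30 to 0.06, adjusted p = 0.998) and -0.22 in DKO (-0.38 to -0.07, adjusted p = 0.588). The interaction was -0.36 (95% interval -0.59 to -0.12, adjusted p = 0.249). DESeq2 gave adjusted p-values of 0.0234 for NFKO against Control and 6.18e-09 for DKO against NFKO. The 3 comparisons with Control share their control libraries, and NFKO enters both comparisons in which Hspa5 stood out.

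The adjusted p-value of Hspa5 in DKO against NFKO remained under 0.05 without any 1 of the 11 libraries (0.00333 to 0.0468), but it was 0.115 with Xist as a covariate (log2 fold change -0.55) and 0.148 with the fibroblast genes as a covariate (-0.40). The F test among the 4 genotypes was less stable. Its adjusted p-value stayed under 0.05 without AnkGKO 2 (0.0445) or DKO 2 (0.00802) and was 0.0505 to 0.131 without each of the other 9, the highest without NFKO 2, and 0.147 without Control 1 and NFKO 1 together. All 6 fibroblast genes were higher in NFKO than in Control (median log2 fold change 1.35) and all 6 lower in DKO than in NFKO (-1.57), though none had an adjusted p-value under 0.05. No NFKO library had Xist in the range of the DKO libraries, so that between these groups Xist and genotype cannot be told apart within a matched pair of libraries.

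A part of the ER chaperone list followed Hspa5 across the libraries. Edem1 (r = -0.56), Ssr3 (-0.43), Dnajb9 (-0.38), Derl1 (-0.06), Syvn1 (0.01), Sel1l (0.05) and P4hb (0.07) did not, and the others had an r of 0.54 or higher. Such values were not particular to chaperones. The 6 meningeal fibroblast genes had an r of 0.58 (Slc6a13) to 0.80 (Lum) with Hspa5. In NFKO against Control, 18 of the 21 had a positive log2 fold change, with a median of 0.12 beside -0.0050 for all tested genes, and 0 of 21 passed an adjusted p of 0.05 (7 were under 0.05 unadjusted, against 7.69% of all genes). In DKO against NFKO, 16 of the 21 were negative, with a median of -0.24 beside 0.00031 for all genes. Dnajb11, a co-chaperone of BiP (-0.29, adjusted p = 0.0367), Calr, the calcium-binding lectin calreticulin (-0.51, adjusted p = 0.0452), and Hsp90b1, the ER Hsp90 (-0.44, adjusted p = 0.0487), passed the p-value threshold, as did 156 of the 17557 genes tested, and 0 of 21 also passed the fold threshold (12 of 21 were under an unadjusted p of 0.05, against 16.2% of all genes). In DKO against Control the median was -0.09 and in AnkGKO against Control -0.03, with 0 of 21 under an adjusted p of 0.05 in either. The list is a description here. Its median in DKO against NFKO was -0.33 with the Xist, -0.25 with the granule cell and -0.17 with the fibroblast covariate. It was -0.24 in a fit of only the libraries compared and -0.28 without Control 1 and NFKO 1. The 3 adjusted calls of the list became 8 with DESeq2 and 0 with the Xist, granule cell or fibroblast covariate. They were also 0 in a fit of only the libraries compared and 0 without Control 1 and NFKO 1. With 1 library left out they became 0 in 8 of 11 fits, 1 without NFKO 3 or AnkGKO 2, and 9 without DKO 2.

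Single chaperones had larger folds on fewer reads. Sdf2l1, a partner of Dnajb11, was at 12.6, 15.8 and 14.5 CPM in NFKO and at 6.30, 10.5 and 7.81 in DKO, a log2 fold change of -0.80 (adjusted p = 0.0616). Derl3, a channel protein of ER-associated degradation, was at 1.87, 2.68 and 1.90 CPM in NFKO and at 0.84, 1.47 and 0.80 in DKO (-1.05, adjusted p = 0.0945). Neither passed the test, and in both the 2 groups did not overlap. Of the pair-wise separations, 4 of the 10 genes had NFKO and Control without overlap in either direction (background 13.9% of all genes) and 4 of 10 had DKO and NFKO without overlap (19.3%), which are Trib3, Asns, Slc7a11 and Hspa5. Among the chaperones the same counts were 12 of 21, all higher in NFKO than in Control, and 10 of 21, all lower in DKO than in NFKO.

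**Figure D3:**
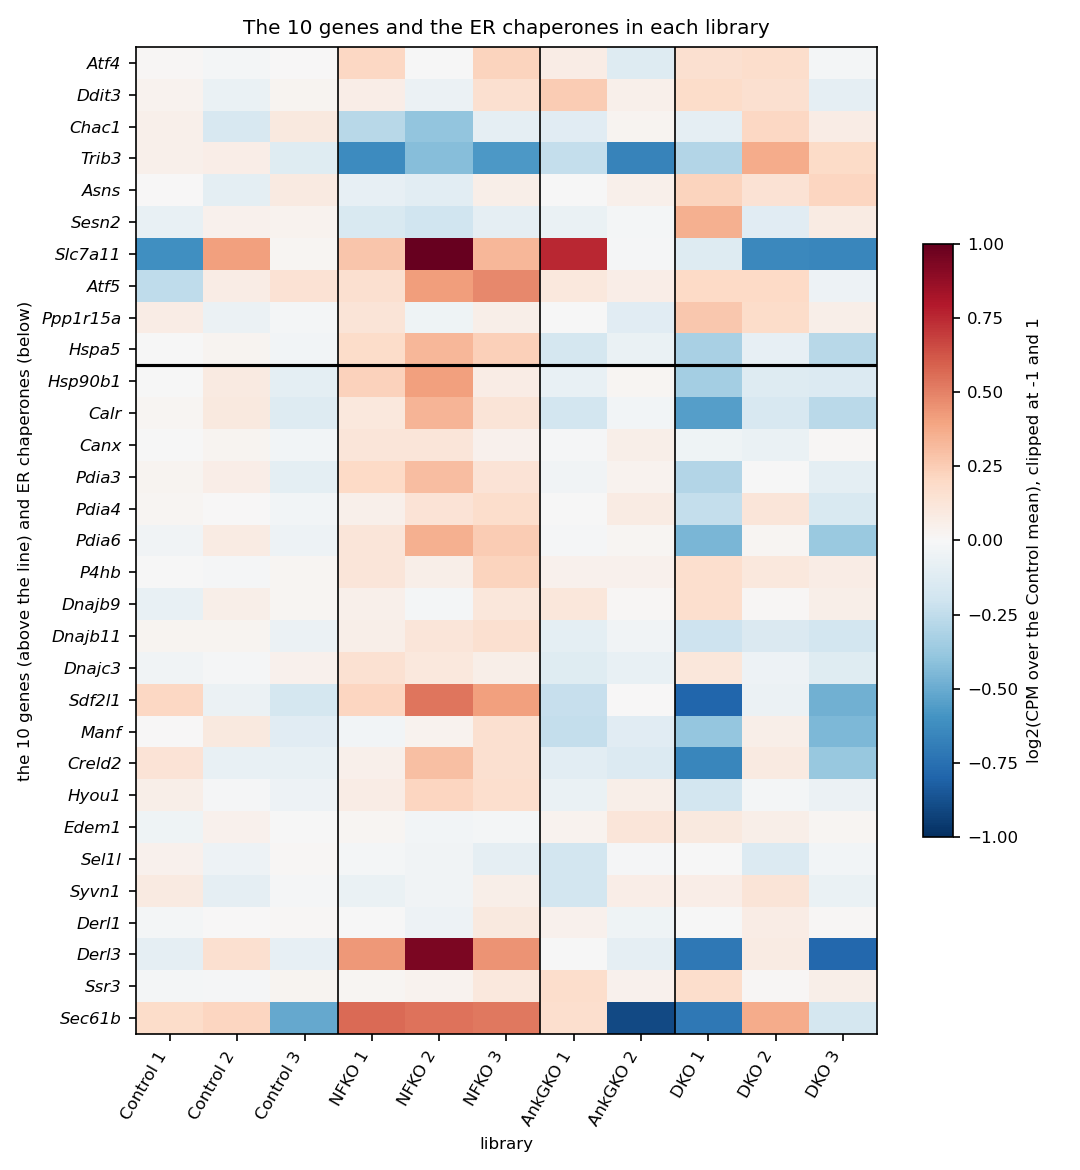
Log2 ratio of CPM to the Control mean (colour, clipped at -1 and 1) for the 10 genes and, below the line, 21 ER chaperones (rows) in each of the 11 libraries (columns). Hspa5 and most chaperones are red in the 3 NFKO libraries and blue in DKO 1 and DKO 3; Atf4 is also red in NFKO 1 and NFKO 3 (0.21 and 0.22), to about the extent of Hspa5 there (0.19 and 0.24).

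The libraries of DKO differed among themselves in this respect. The median log2 ratio of the 21 chaperones to their Control means was -0.21 in DKO 1, 0.02 in DKO 2 and -0.12 in DKO 3, while it was 0.07, 0.12 and 0.14 in NFKO 1, 2 and 3. Over the 9 genes other than Hspa5 the same median was 0.18, 0.17 and 0.06 in DKO, 0.07, -0.06 and 0.06 in NFKO, and -0.00033 and -0.01 in AnkGKO. All of these are below 0.25 in size, smaller than the fold threshold. DKO 2, the library with chaperones nearest to Control, had Hspa5 at 271 CPM and fibroblast genes at 331 CPM, the highest of its group in both.

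The 10 genes did not rise and fall as one block across mice. Of their 45 pairs, 25 had a positive Pearson r of log2 CPM over the 11 libraries, the median r was 0.10, and 0 pairs had an adjusted p under 0.05 in permutation tests of 100000 resamples (9 had an unadjusted p under 0.05). The 11 libraries fall into 4 genotypes, so r was also taken over the deviations from the genotype means. Atf4 and Ppp1r15a had an r of 0.75 (permutation p = 0.00817, adjusted p = 0.0929) and a Spearman rho of 0.75 (permutation p = 0.0101, adjusted p = 0.126), an r of 0.87 without the 2 libraries farthest from the median of Atf4, and 0.83 within genotypes. Atf4 and Ddit3 had an r of 0.61 (permutation p = 0.0486, adjusted p = 0.231), a rho of 0.69 (permutation p = 0.0221, adjusted p = 0.146), 0.65 without 2 libraries, and 0.94 within genotypes. The lowest r was that of Chac1 and Slc7a11 at -0.84 (permutation p = 0.00133, adjusted p = 0.0598), with a rho of -0.78 (permutation p = 0.00621, adjusted p = 0.126), an r of -0.65 without 2 libraries and -0.75 within genotypes. These are 1 enzyme that consumes glutathione and 1 transporter that supplies it.

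Hspa5 ran against 2 of the ATF4 targets. Its r was -0.75 with Asns (permutation p = 0.00826, adjusted p = 0.0929) and a rho of -0.73 (permutation p = 0.0140, adjusted p = 0.126), which came to -0.50 without 2 libraries and to -0.39 within genotypes. With Sesn2 its r was -0.75 (permutation p = 0.00421, adjusted p = 0.0929), its rho -0.69 (permutation p = 0.0227, adjusted p = 0.146), and it was -0.57 without 2 libraries and -0.70 within genotypes. None of these pairs passed the adjustment over 45.

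**Figure D4:**
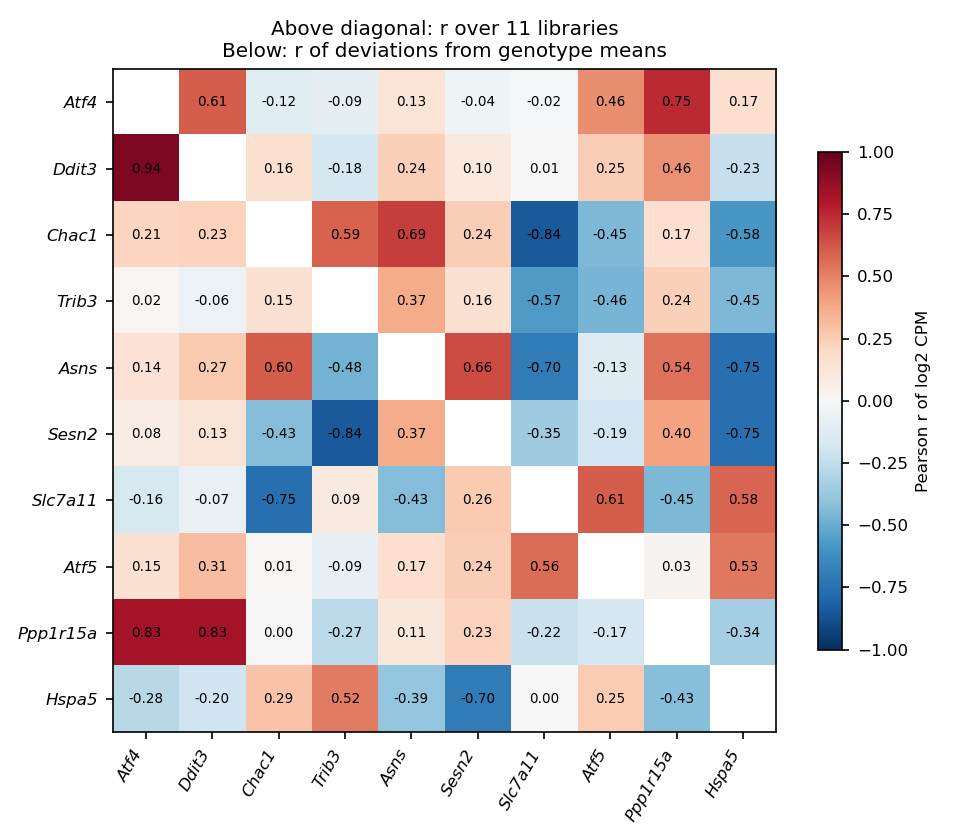
Pearson r between the 10 genes, above the diagonal for log2 CPM over the 11 libraries and below it for deviations from the genotype means; colour runs from -1 (blue) to 1 (red). The corner of Atf4, Ddit3 and Ppp1r15a holds 0.94, 0.83 and 0.83 below the diagonal, and Slc7a11 with Chac1 holds -0.84 above it.

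The genes most like each of the 10 were sought among 13910 genes with a mean of at least 1 CPM, as the 3 with the highest r over the 11 libraries. For Hspa5 they were Sdf2l1 (0.94), Derl3 (0.94) and Dnajb11 (0.94), and 9 of the 21 chaperones were among its 50 nearest genes. The points share the 4 genotypes and the library composition named above. For Asns the nearest was Gars, which charges tRNA with glycine (0.97), followed by Ndel1 (0.95) and Atxn10 (0.95). For Slc7a11 they were Arhgap29 (0.96), Foxc1 (0.96) and Gpc4 (0.96), for Atf5 Ms4a6c (0.93), Tgfbi (0.91) and Fam26e (0.89), and for Atf4 Aen (0.90), H47 (0.89) and 2510006D16Rik (0.88). The nearest gene to Chac1 was Mt3 (0.96), to Sesn2 Nom1 (0.95), to Trib3 2610528E23Rik (0.94), to Ppp1r15a D11Wsu99e (0.93) and to Ddit3 Rpp30 (0.89). Each of the 10 genes had a neighbour at 0.89 or higher, over 11 points.

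The rest of the pathway was read from 12 lists with 146 tested genes. In NFKO against Control and in DKO against Control, 0 of the 146 had an adjusted p-value under 0.05. AnkGKO against Control called 2, Atf3 and Phgdh (1.37% of 146, beside the 0.165% of all genes), and DKO against NFKO called 2, Phgdh and Slc7a5 (1.37%, beside 0.615%). DKO against AnkGKO and the interaction called 0.

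Atf3, a stress-induced repressor that ATF4 switches on and that also marks injured neurons, was at 1.53, 1.23 and 1.64 CPM in Control, 1.80, 2.10 and 1.65 in NFKO, 3.49 and 4.78 in AnkGKO and 2.71, 2.78 and 2.26 in DKO. Both AnkGKO libraries were the highest, DKO came next, then NFKO, and Control was lowest. The lowest NFKO library (1.65 CPM) lay just above the highest control (1.64 CPM). Its log2 fold change in AnkGKO was 1.49 (SE 0.21, adjusted p = 0.0116), and 0.81 in DKO (adjusted p = 0.467). The call in AnkGKO ended without Control 1, Control 2 or AnkGKO 2 (adjusted p up to 0.163). Wherever 1 of the 2 AnkGKO libraries is left out, here and below, the lone library is assumed to vary like those of the other groups. The Atf3 call also ended with the Xist or granule cell covariate and with Control 1 and NFKO 1 left out. It ended too under the replicate block (adjusted p = 0.0728) and in a fit of only the libraries compared. In these fits the adjusted p reached 0.262, and the log2 fold change was 1.31 to 1.53. The 5 microglia genes summed to 427 to 439 CPM in AnkGKO and to 314 to 376 in Control, and their part in Atf3 was not tested.

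Phgdh, the first enzyme of serine synthesis, was at 8.50, 12.4 and 8.57 CPM in Control, 9.22, 7.13 and 9.42 in NFKO, 19.4 and 18.7 in AnkGKO and 16.1, 14.8 and 15.5 in DKO. Every library with a targeted Ank3 lay above every library without. The log2 fold change was 0.95 in AnkGKO against Control (SE 0.17, adjusted p = 0.0468) and 0.85 in DKO against NFKO (SE 0.15, adjusted p = 0.0244), and 0.65 in DKO against Control with an adjusted p of 0.427. In these transcripts 28.1% of the 50-base words of Phgdh occur also in other genes such as Gm7901, so its count is uncertain where reads could not be placed. Without any 1 library the adjusted p-value ran from 0.00987 to 0.310 for AnkGKO against Control, where it stayed under 0.05 in 2 of 11 fits, and from 0.00715 to 0.0985 for DKO against NFKO, where it stayed in 7 of 11. With the replicate block it was 0.167 and 0.0583, with the Xist covariate 0.196 and 0.284, with the granule cell covariate 0.182 and 0.0539, and without Control 1 and NFKO 1 0.278 and 0.0662. In the same order the log2 fold changes were 0.95 and 0.85, 1.11 and 0.67, 0.92 and 0.82, and 0.86 and 0.90. The first call of Phgdh also ended in a fit of only the libraries compared (0.172) and the second with the fibroblast covariate (0.165). Phgdh is abundant in astrocytes, whose 5 marker genes summed to 3988 to 4768 CPM in AnkGKO and 3476 to 4416 in DKO, against 2844 to 3516 in Control and 2759 to 3313 in NFKO, and their part in Phgdh was not tested.

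Slc7a5, the transporter LAT1 that imports leucine, was at 124, 109 and 97.7 CPM in Control, 79.7, 75.4 and 94.5 in NFKO, 96.6 and 117 in AnkGKO and 133, 122 and 125 in DKO. NFKO lay below all other groups without overlap, and DKO above NFKO and AnkGKO. Its log2 fold change in DKO against NFKO was 0.61 (SE 0.11, adjusted p = 0.0244), and -0.41 in NFKO against Control (adjusted p = 0.221). The DKO against NFKO value stayed under an adjusted p of 0.05 in 7 of 11 fits without 1 library (highest 0.114, lost without DKO 1, DKO 3, NFKO 1 or NFKO 2) and was 0.0622 with the replicate block and 0.0851 without Control 1 and NFKO 1. With the Xist covariate the log2 fold change of Slc7a5 was 0.45 (adjusted p = 0.287) and with the fibroblast covariate 0.42 (adjusted p = 0.288), both under the fold threshold. Cbs, of the transsulfuration route to cysteine (0.58, adjusted p = 0.0341), and Sqstm1, the autophagy receptor p62 (0.33, adjusted p = 0.0464), passed only the p-value threshold in the same comparison.

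The kinase, subunit and tRNA synthetase lists had no called gene. The 7 kinases and phosphatase regulators of eIF2 had medians of 0.08, 0.07 and 0.02 in NFKO, AnkGKO and DKO against Control, with Eif2ak2, the kinase that senses double-stranded RNA, at 0.53 in AnkGKO (adjusted p = 0.578) and 0.52 in DKO (adjusted p = 0.562). The 8 subunits of eIF2 and eIF2B had medians of -0.03, -0.03 and 0.10. The 20 cytosolic tRNA synthetases, most of which are ATF4 targets, had 17 positive values in DKO against Control and 17 in DKO against NFKO, with medians of 0.09 and 0.13 and 0 of 20 under an adjusted p of 0.05. Gars was among them at 0.20 in DKO against NFKO (adjusted p = 0.194).

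Amino acid enzymes (13 genes) and transporters (10 genes) had medians of 0.06 and 0.12 in DKO against Control. The 18 other ATF4 and CHOP targets had a median of 0.07 in the same comparison and 0.05 in NFKO against Control, and the 9 partner factors 0.04 and 0.10. Among the neighbouring stress programmes, the 9 sensors of the unfolded protein response had medians of 0.04 in NFKO against Control and -0.17 in DKO against NFKO, with Xbp1 at -0.36 in the latter (adjusted p = 0.148). The 12 NRF2 targets had medians of 0.01 and 0.07 in these comparisons, the 11 cytosolic heat shock genes 0.17 and -0.12, and the 9 mitochondrial stress genes 0.00065 and 0.0028. In each of these lists 0 genes passed an adjusted p of 0.05 in the 3 comparisons with Control, apart from Atf3 and Phgdh in AnkGKO.

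**Figure D5:**
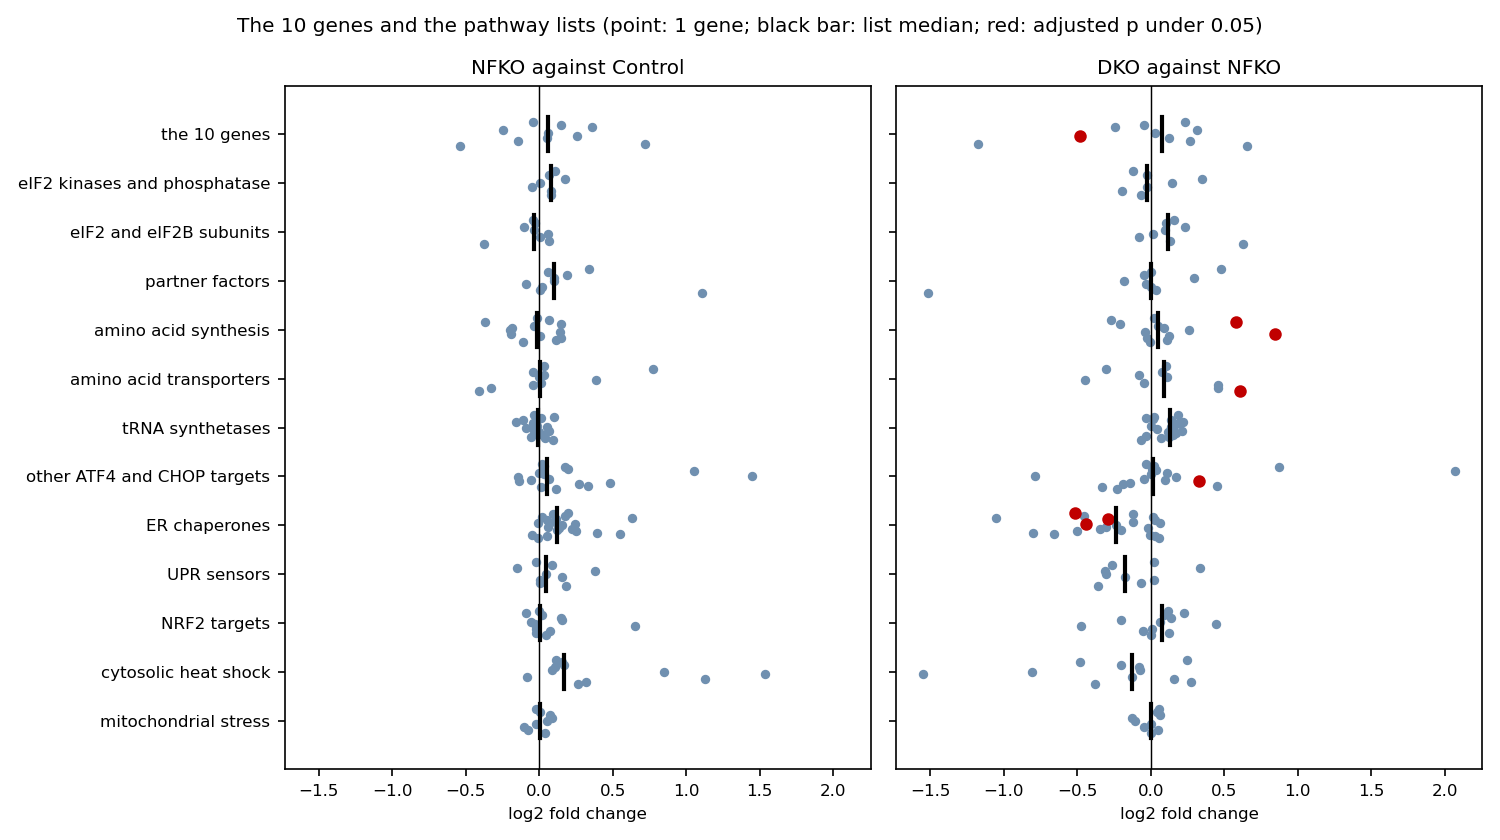
Log2 fold change (horizontal axis) of single genes (points) in the 10 genes and 12 pathway lists (rows), in NFKO against Control (left) and DKO against NFKO (right); black bars are medians, and red marks an adjusted p-value under 0.05. No point is red on the left, and the chaperone median moves from 0.12 on the left to -0.24 on the right.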

How the data were processed

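The authors trimmed the reads with Trimmomatic 0.39, aligned them to GRCm39 with STAR 2.7.11a and deposited raw gene counts. They also deposited a table of normalized signal, in which each library's counts are scaled by a constant (size factors of 0.815 to 1.16). The 5 summary lines stayed out; reads on no gene were 9.23% to 10.4% of reads. Whether the counting used strand is not given in the sources used here.

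Counts were fitted with edgeR 4.0.16 (R 4.3.3): TMM scaling, at least 10 counts in total, robust quasi-likelihood over the 4 genotypes, Benjamini-Hochberg over 17557 genes, with calls as defined above. Alternatives were DESeq2 1.42.0 with a local fit, its size factors, other filters, covariates, the replicate block and single libraries left out; the fibroblast covariate, and all alternatives for DKO against NFKO, the chaperones, Atf3, Phgdh and Slc7a5, were chosen after seeing the data. The NFKO against Control fits of edgeR and DESeq2 were run on simulated counts. The other steps were not tested in this way. The p-values of edgeR and DESeq2 set group differences against the spread between these libraries. The permutation p-values come from shuffling all 11 libraries without regard to genotype.

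The genes and lists were chosen with earlier results of these data known. Named are all 10 genes, from each list the called genes, and examples among the 3 smallest F-test p-values of a list. Gars, Sdf2l1 and Derl3 were named after their values were seen. Other chaperones that are named fall outside this rule and are given with their correlation with Hspa5 or their motif match. The replicate block ties libraries of the same number in all groups, although the labels do not say what the numbers stand for. Control and NFKO libraries of the same number had correlated deviations (r = 0.57, 0.47 and 0.26). AnkGKO libraries had an r of -0.39 and -0.47 with Control and of -0.33 and -0.36 with NFKO. For DKO it was -0.10, 0.32 and -0.04 with Control and 0.06, 0.45 and 0.27 with NFKO.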

Additional observations from a re-analysis of the deposited data

Results flagged for a closer look

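Trib3 was picked out because its libraries moved in opposite ways under the same contrast. Both AnkGKO libraries lay below every control, whereas every DKO library lay above every NFKO library. The interaction was 1.09 on the log2 scale, and its test did not pass (adjusted p = 0.342 in edgeR). The gene was counted at 24 to 52 reads per library.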

How the results depend on the processing

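The count of called genes among the 10 was 0 in all 6 comparisons under every alternative, with the exception of 1 (Hspa5, DKO against NFKO) without a fold threshold. The count that differed among the 4 genotypes, 1, was 2 with DESeq2, 0 with the Xist, granule cell or fibroblast covariate, 0 without the 2 libraries high in granule cell genes, and 0 to 1 when 1 library was left out. With the replicate block it was 1, and Hspa5 had an adjusted p of 0.00710 in DKO against NFKO and of 0.195 in NFKO against Control. The block ended the calls of Atf3, Phgdh and Slc7a5 given above. It left 3 chaperones under an adjusted p of 0.05 in DKO against NFKO. Ank3, Cbs and Sqstm1 were not checked under the block. Of 840 fits of 40 log2 fold changes of the 10 genes, 813 kept their direction and 27 did not. The granule cell covariate gave 0.0061 for Atf4, -0.085 for Atf5 and 0.017 for Ppp1r15a in AnkGKO against Control and -0.025 for Atf5 in DKO. The Xist covariate gave -0.049 for Asns and -0.028 for Atf5 in AnkGKO, the fibroblast covariate 0.028 for Asns and -0.048 for Slc7a11 in NFKO, the block 0.0061 for Chac1 in AnkGKO, and leaving out Control 1 and NFKO 1 gave -0.023 for Atf5 in AnkGKO. Leaving out 1 library, with a lone AnkGKO library assumed to vary like the other groups, turned the sign in AnkGKO against Control for Atf4 (-0.13 to 0.074), Chac1 (-0.12 to 0.031), Asns (-0.027 to 0.068), Slc7a11 (-0.016 to 0.75), Atf5 (-0.023 to 0.17) and Ppp1r15a (-0.11 to 0.0015). It did so in DKO against Control for Chac1 (-0.012 to 0.14), Trib3 (-0.026 to 0.28) and Sesn2 (-0.012 to 0.22), in NFKO against Control for Asns (-0.093 to 0.0032), and in DKO against NFKO for Atf4 (-0.11 to 0.018) and Ddit3 (-0.027 to 0.11). The cause was not tested. Over all genes the calls in NFKO, AnkGKO and DKO against Control and in DKO against NFKO numbered 64, 29, 4 and 108, against 159, 102, 44 and 418 with DESeq2, 31, 13, 5 and 42 with the Xist covariate and 38, 37, 7 and 37 with the fibroblast covariate. A p that missed the threshold does not show equal levels, and for Trib3 the depth limits what can be seen.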
